A study of Mus musculus with 6 samples.

Results

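The gene set described here is *Hesx1* together with 8 other transcription factors of the anterior neural plate and forebrain, namely *Six3*, *Pax6*, *Sox1*, *Sox3*, *Lhx2*, *Lhx5*, *Rax* and *Zic1*. These 9 genes are among the 24393 features counted in each library. *Hesx1* was chosen because its mRNA was far higher in HOXA13-overexpressing cells, so its own difference is given as a description with no test. The other 8 were chosen by name, with earlier results of these data known. The aim was to ask whether the higher *Hesx1* level came with other anterior neural factors.

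The study used KH2 mouse embryonic stem cells (mESC), labelled strain C57/BL/6, a line made for single-copy insertion of inducible transgenes. Poly(A)-selected RNA was sequenced from 3 libraries of genotype CONTROL and 3 of genotype HOXA13, which carried a FLAG-tagged human *HOXA13* under a doxycycline-responsive promoter. All samples carry the label "No treatment". The study's methods describe doxycycline induction as a check of the targeted clones but do not tie a dose or duration to these libraries, and they call the replicates biological without saying whether each was a clone of its own. Both groups were grown with leukaemia inhibitory factor on irradiated 3T3-Swiss albino fibroblasts, so feeder RNA can be present in every library.

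Library totals were 14608681 to 21766589 counts in control and 13494135 to 20374341 in HOXA13 cells, and 3 counts corresponded to 0.134 to 0.227 CPM (counts scaled to a common library size). The feature with the human identifier ENSG00000106031, which the files list among mouse symbols, had 0 to 6 counts in control and 2881 to 4298 in HOXA13 libraries. The embryonic stem cell factor *Pou5f1* averaged 706 ± 74.9 CPM over the controls and 690 ± 4.93 CPM over the HOXA13 libraries (SD, *n* = 3 each), and of 9 embryonic stem cell markers, all tested, 6 were higher and 0 lower against 14.4% and 13.3% of all tested genes (2 higher without control replicate 3 or without any of the HOXA13 replicates). Control replicate 2 stood apart from the other controls in several neural and primitive streak genes, as given beside the results. In such bulk RNA, fewer cells of a type and less RNA per cell cannot be told apart.

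*Hesx1* encodes a paired-like homeodomain repressor, first active in the anterior visceral endoderm and anterior neural plate and later in the pituitary primordium, and it is needed for normal forebrain, eye and pituitary development. It is also transcribed in pluripotent stem cells, as are several *Sox* and *Zic* genes. *Six3*, *Rax*, *Lhx2* and *Pax6* act in the eye field and forebrain, *Sox1* and *Sox3* are SoxB1 factors of the early neural plate, and *Zic1* is a zinc finger factor of dorsal neural tissue.

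The level of *Hesx1* was low in control cells and 27.9-fold higher in HOXA13 cells. Control libraries 1, 2 and 3 had 25, 18 and 16 *Hesx1* counts, or 1.11, 1.22 and 0.808 CPM. HOXA13 libraries 1, 2 and 3 had 607, 519 and 377 counts, or 30.8, 28.6 and 28.5 CPM. Every HOXA13 library was thus far above every control library, and the libraries within each group were close together. The means were 1.05 ± 0.215 CPM in control and 29.3 ± 1.32 CPM in HOXA13 cells (SD, *n* = 3 each). The log2 fold change fitted by edgeR was 4.81 (SE 0.15), and 15 of the 13846 genes with enough counts to be tested had a larger one. The ratio of the counts summed over each group was 28.4 with a 95% exact interval of 21.9 to 37.5, which covers counting error only. *Hesx1* (ENSMUSG00000040726.7) lies on the plus strand of chromosome 14 at 27813548 to 27815515 in mm9, with 4 annotated exons covering 1141 bases.

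**Figure D1:**
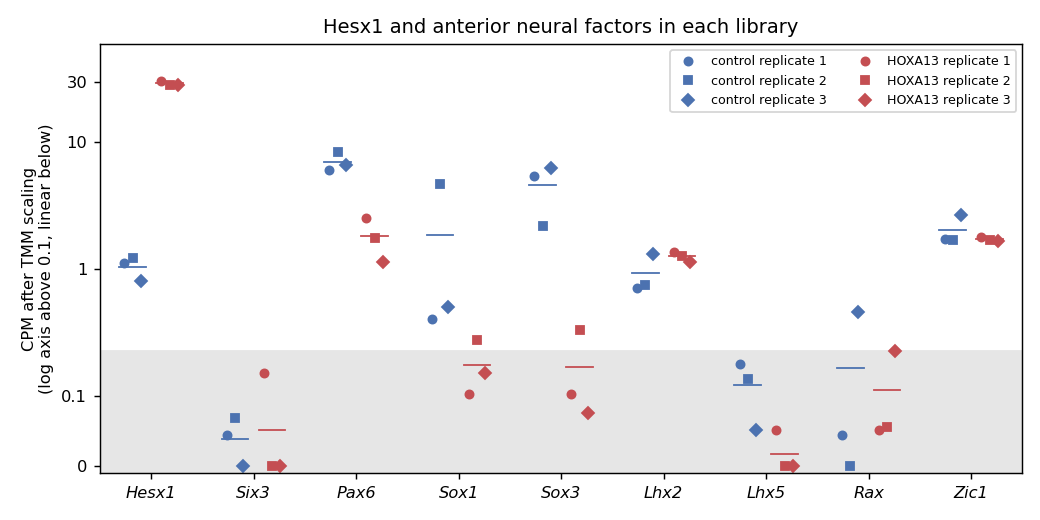
Levels of the 9 factors in each library, in CPM after TMM scaling on an axis that is logarithmic above 0.1 and linear below; points are single libraries, short lines are group means and the grey band marks levels at or below 3 counts in the shallowest library. *Hesx1* sits between 28.5 and 30.8 CPM in the HOXA13 libraries and at or under 1.22 CPM in the controls, whereas *Pax6*, *Sox3* and *Sox1* are lower in every HOXA13 library than in any control. The latter was so for 22.2% of all tested genes.

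The 250 bases before the annotated start of *Hesx1*, *Pax6* and *Sox1* are shown because *Hesx1* was higher and *Pax6* and *Sox1* were lower in every HOXA13 library than in any control. Among all tested genes 23.5% were higher and 22.2% lower without overlap of the groups. The sequences are those of RefSeq on GRCm38.p6, written 5′ to 3′ on the gene's strand with each CG pair in capitals. They stand at chr14:27000112-27000361 for *Hesx1*, chr2:105668646-105668895 for the first of the *Pax6* windows and chr8:12395269-12395518 for *Sox1*, all on the plus strand.
Hesx1: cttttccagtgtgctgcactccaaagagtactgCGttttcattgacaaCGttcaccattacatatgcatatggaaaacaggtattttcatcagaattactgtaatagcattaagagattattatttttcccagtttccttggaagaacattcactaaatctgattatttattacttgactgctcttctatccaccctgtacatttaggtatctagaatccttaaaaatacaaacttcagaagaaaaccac
Pax6: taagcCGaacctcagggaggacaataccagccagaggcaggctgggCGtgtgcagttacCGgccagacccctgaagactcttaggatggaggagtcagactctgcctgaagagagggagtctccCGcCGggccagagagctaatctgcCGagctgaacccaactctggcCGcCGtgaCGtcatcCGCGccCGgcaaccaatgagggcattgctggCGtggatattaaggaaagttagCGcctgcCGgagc
Sox1: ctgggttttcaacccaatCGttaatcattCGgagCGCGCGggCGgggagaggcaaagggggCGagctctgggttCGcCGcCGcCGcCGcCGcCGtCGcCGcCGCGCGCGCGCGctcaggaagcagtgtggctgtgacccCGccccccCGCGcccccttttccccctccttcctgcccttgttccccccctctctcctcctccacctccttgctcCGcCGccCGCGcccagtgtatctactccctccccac
The *Hesx1* sequence held 2 CG pairs and a G+C content of 34.0%, the *Pax6* sequence 15 pairs and 60.8%, and the *Sox1* sequence 29 pairs and 71.2%. The second *Pax6* window, not shown, held 15 pairs and 47.6%. CG-rich stretches also stood before factors that passed in neither direction, with 25 and 24 pairs (72.8% and 68.4%) in the *Lhx2* windows and 27 pairs (66.0%) in that of *Zic1*, and the *Six3* window held 10 pairs. Over all 32851 windows of this table the medians were 6 pairs and 52.4%, and 3.87% of windows had a lower G+C content than that of *Hesx1*. RefSeq windows were matched for 6 of the 9 genes, with more than 1 start for *Pax6* and *Lhx2*, and *Sox3*, *Lhx5* and *Rax* were not matched.

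These letters were also searched, on both strands of the 300 bases that run from 250 before to 50 after each start, for 5 words. They were the octamer ATGCAAAT bound by POU factors (in 1.74% of all windows), CAATAAA (4.6%) and CTCGTAAA (0.131%), which are words of posterior Hox proteins, the homeodomain word TAATTA (5.29%) and the Sox word AACAAT (10.7%). No word contains another. The *Hesx1* window held none of the 5. The matches in the other windows were CAATAAA in the second *Pax6* window and ATGCAAAT in the *Sox1* window. A match here is a description of letters, and no match says only that these words are not in this window.

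Of the other 8 factors *Pax6* and *Sox3* fell in HOXA13 cells, and none passed the test as higher. Of these 8, 4 had enough counts to be tested over all genes by edgeR's quasi-likelihood test (adjusted p under 0.05 after Benjamini-Hochberg adjustment). Of the 4 tested, 0 were higher and 2 were lower, against 14.4% higher and 13.3% lower (27.7% in either direction) among all 13846 tested genes. The count of higher genes was also 0 at an unadjusted p under 0.05, with DESeq2 and with limma-voom. *Lhx2* and *Zic1* were the tested factors that passed in neither direction. *Six3*, *Sox1*, *Lhx5* and *Rax* had too few counts for that fit.

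*Pax6*, which encodes a paired-box and homeodomain factor of eye, forebrain and neural progenitors, had 6.06, 8.36 and 6.62 CPM in control libraries 1, 2 and 3 and 2.54, 1.76 and 1.13 CPM in HOXA13 libraries 1, 2 and 3. The groups did not overlap, as was so in the lower direction for 22.2% of all tested genes. The mean fell from 7.01 ± 1.20 to 1.81 ± 0.704 CPM (SD, *n* = 3 each), a log2 fold change of -1.91 (SE 0.28, edgeR adjusted p = 0.00204, with 1.86e-08 to 0.0172 over the alternative settings). The counts behind these values were 123 to 136 in control and 15 to 50 in HOXA13 libraries. *Pax6* (ENSMUSG00000027168.12) spans 105509053 to 105543317 on the plus strand of chromosome 2 (mm9). On the opposite strand it overlaps *Elp4*, an Elongator subunit gene at 25.5 ± 1.08 CPM in control and 28.6 ± 2.63 CPM in HOXA13 cells (log2 fold change 0.17, edgeR adjusted p = 0.224), and the strand setting of the counting is not given in the sources used here. The antisense gene *Pax6os1* had 0 counts in every library.

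Among the SoxB1 factors, *Sox3*, a neural plate factor encoded on the X chromosome, had 5.44, 2.17 and 6.27 CPM in control libraries 1, 2 and 3. In HOXA13 libraries 1, 2 and 3 it had 0.102, 0.33 and 0.0756 CPM, which are 2, 6 and 1 counts against 122, 32 and 124 in control. All HOXA13 libraries were below all controls, and control replicate 2 was the lowest control. The log2 fold change was -4.68 (SE 0.59, edgeR adjusted p = 0.00104, with 2.4e-11 to 0.0146 over the alternatives), and 12 of 13846 genes had a lower one. Without HOXA13 replicate 2 it was -5.58. The summed counts gave a ratio of 0.0361 (95% exact interval 0.0163 to 0.0695). *Sox3* (ENSMUSG00000045179.7) lies on the minus strand of chromosome X at 58144545 to 58146605 (mm9).

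*Sox1*, among the earliest markers of neural commitment, was counted mostly in a single library. Control libraries 1, 2 and 3 had 9, 69 and 10 counts, and HOXA13 libraries 1, 2 and 3 had 2, 5 and 2. On the CPM scale these were 0.401, 4.69 and 0.505 in control and 0.102, 0.275 and 0.151 in HOXA13 cells. All controls were above all HOXA13 libraries, but control replicate 2 exceeded the other controls by more than these exceeded the HOXA13 libraries. An exact two-sided permutation test over the samples gave p = 0.1, the smallest that 3 against 3 libraries allow. *Sox1* failed the count filter, and with no filter edgeR gave a log2 fold change of -3.27 (adjusted p = 0.0429). Its edgeR adjusted p was 0.144 without HOXA13 replicate 2 and 0.165 without HOXA13 replicate 3. With any other library left out, control replicate 2 among them, *Sox1* again failed the count filter.

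**Figure D2:**
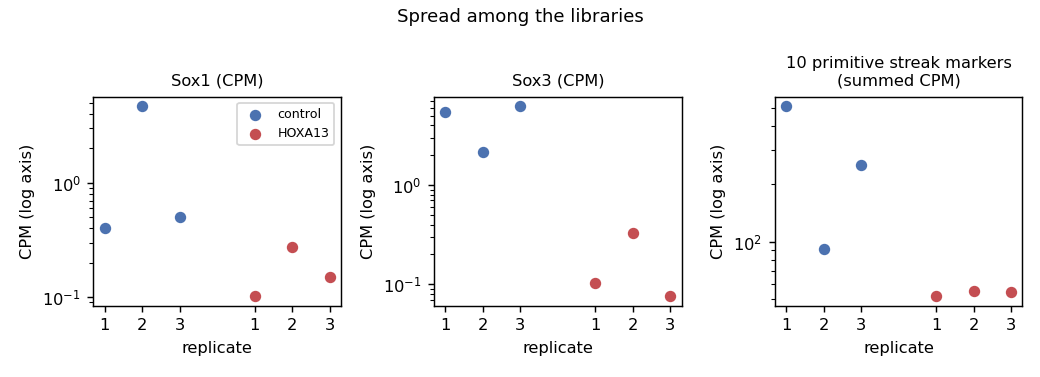
Levels of *Sox1*, *Sox3* and the sum of 10 primitive streak markers in each library, in CPM on logarithmic axes; each point is a library. Control replicate 2 has the highest *Sox1* level (4.69 CPM) and the lowest *Sox3* level (2.17 CPM) and streak sum (91.3 CPM) of the controls, and the HOXA13 libraries lie below all controls in each panel.

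Control replicate 2, the lowest control for *Sox3*, was also the lowest control for primitive streak markers, which were summed over 10 genes, while controls 1 and 3 stood in opposite order in *Sox3* and in the sum. This sum was 509, 91.3 and 251 CPM in control libraries 1, 2 and 3 and 51.9, 55.0 and 54.7 CPM in HOXA13 libraries 1, 2 and 3. It was lower in all HOXA13 libraries than in any control, and 6 of the 9 tested markers fell, against 13.3% of all tested genes (1 of 9 with limma-voom, 3 without HOXA13 replicate 1). Feeder fibroblast markers, 20 genes of which none was at 0 in any library, made up 0.73% to 1.04% of counts in control and 0.875% to 1.08% in HOXA13 libraries, and 0 of the 20 were higher (1 at an unadjusted p under 0.05, 1 with DESeq2, 0 with limma-voom, 2 with the replicate block and 0 to 2 with a library left out) and 2 lower (0 to 4 with a library left out), against 14.4% and 13.3% of all tested genes. The part of either in the levels of the neural factors was not tested.

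*Lhx2*, a LIM-homeodomain factor of the eye field and cortex, had 0.713, 0.748 and 1.31 CPM in control libraries 1, 2 and 3 and 1.37, 1.27 and 1.13 CPM in HOXA13 libraries 1, 2 and 3. The groups overlapped, since control replicate 3 lay among the HOXA13 libraries. The log2 fold change was 0.44 (SE 0.32, edgeR adjusted p = 0.338, with 0.119 to 0.609 over the alternatives), and the ratio of summed counts was 1.37 (95% exact interval 0.936 to 2.0). *Lhx2* (ENSMUSG00000000247.4) lies on the plus strand of chromosome 2 at 38194801 to 38225253 (mm9).

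*Zic1* had 1.74, 1.7 and 2.68 CPM in control libraries 1, 2 and 3 and 1.78, 1.71 and 1.66 CPM in HOXA13 libraries 1, 2 and 3. The groups overlapped and only control replicate 3 stood above the rest. The log2 fold change was -0.25 (SE 0.26, edgeR adjusted p = 0.508, with 0.344 to 0.998 over the alternatives), and the ratio of summed counts was 0.838 (95% exact interval 0.628 to 1.11). *Zic1* (ENSMUSG00000032368.8) lies on the minus strand of chromosome 9 at 91252896 to 91260648 (mm9), and *Zic4*, which overlaps it on the opposite strand, had 6 to 11 counts per library.

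The 3 remaining factors were at or near the counting floor. *Six3*, a homeodomain repressor of Wnt signalling in the forebrain (ENSMUSG00000038805.7, chromosome 17, 86012948 to 86031153, mm9), was counted 1, 1 and 0 times in the controls and 3, 0 and 0 times in the HOXA13 libraries. *Lhx5*, a LIM-homeodomain factor of the forebrain (ENSMUSG00000029595.5, chromosome 5, 120881895 to 120891466), was counted 4, 2 and 1 times in the controls and 1, 0 and 0 times in the HOXA13 libraries. *Rax*, the retina and anterior neural fold homeobox gene (ENSMUSG00000024518.3, chromosome 18, 66094293 to 66098743), was counted 1, 0 and 9 times in the controls and 1, 1 and 3 times in the HOXA13 libraries. The groups overlapped for all 3 genes. Exact two-sided permutation tests gave p = 1 for *Six3*, p = 0.2 for *Lhx5* and p = 1 for *Rax*, where 0.1 is the smallest p that 3 against 3 libraries allow.

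Per kilobase of annotated exon, the order of the levels changed between the groups. The length used merged all annotated exons of a gene, 19833 bases for *Pax6* against 2061 for *Sox3* and 1141 for *Hesx1*. This scale therefore sets *Pax6* low. In plain CPM the control mean of *Pax6* was above that of *Sox3* (7.01 ± 1.2 against 4.63 ± 2.16), with overlapping libraries. In control cells *Sox3* was highest at 2.24 ± 1.05 CPM per kb, followed by *Hesx1* at 0.919 ± 0.188, *Zic1* at 0.358 ± 0.0973, *Pax6* at 0.354 ± 0.0603 and *Lhx2* at 0.297 ± 0.108 (SD, *n* = 3 each). The libraries of *Sox3* and *Hesx1* overlapped on this scale, as did those of *Zic1*, *Pax6* and *Lhx2*. In HOXA13 cells *Hesx1* was highest at 25.7 ± 1.16 CPM per kb, followed by *Lhx2* at 0.403 ± 0.0381, *Zic1* at 0.301 ± 0.0101, *Pax6* at 0.0913 ± 0.0355 and *Sox3* at 0.0821 ± 0.068, of which *Pax6* and *Sox3* overlapped. *Rax*, *Lhx5* and *Six3* had lower means in both groups, *Rax* with libraries that overlapped its nearest neighbour in the order, and *Sox1* was not placed on the annotation used here. The summed CPM of all 9 genes was 15.7, 19.1 and 18.7 in control libraries and 37.0, 34.0 and 32.9 in HOXA13 libraries, with *Hesx1* making up most of the sum in the latter.

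In a wider list of 25 anterior neural factors, *Nkx2-2* and *Zic5* were higher and *Sp8* was lower. These were 2 higher and 1 lower of 13 tested genes, against 14.4% and 13.3% of all tested genes, and the median log2 fold change was 0.17 against 0.00 over all tested genes. Another 12 were not tested, 9 of them with at most 3 counts in every library. *Nkx2-2*, a ventral neural homeobox gene, rose from 0.223, 0.204 and 0.303 CPM to 1.22, 1.49 and 1.29 CPM (log2 fold change 2.41, SE 0.32, edgeR adjusted p = 0.00137), with 3 to 6 counts per control library. *Sp8*, a zinc finger factor of the anterior neural ridge, fell from 9.94, 2.72 and 7.23 CPM to 0.152, 0.00 and 0.302 CPM (log2 fold change -5.53, SE 0.74, edgeR adjusted p = 0.00136), and the fold change was -4.91 without HOXA13 replicate 2 and -6.29 without HOXA13 replicate 3. Like *Sox3*, it was lowest among the controls in replicate 2.

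*Zic5*, a further zinc finger factor, was at 9.72, 5.78 and 7.58 CPM in control and 13.1, 14.2 and 13.2 CPM in HOXA13 libraries (log2 fold change 0.80, SE 0.18, edgeR adjusted p = 0.014). This call was lost without control replicate 3 (adjusted p = 0.0537), HOXA13 replicate 1 (0.0579) or HOXA13 replicate 2 (0.0638), and when each chromosome was centred on its own median (0.188). *Otx2*, the head organizer and forebrain homeobox gene, had 35.7, 16.2 and 29.5 CPM in control and 31.3, 31.9 and 33.6 CPM in HOXA13 libraries (log2 fold change 0.24, SE 0.24, edgeR adjusted p = 0.498). *Zic2* followed the same order among the controls, with 81.4, 33.5 and 69.5 CPM against 81.0, 77.2 and 76.4 CPM (log2 fold change 0.34, edgeR adjusted p = 0.381). For both genes control replicate 2 was the lowest library and the other controls lay near or above the HOXA13 level.

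**Figure D3:**
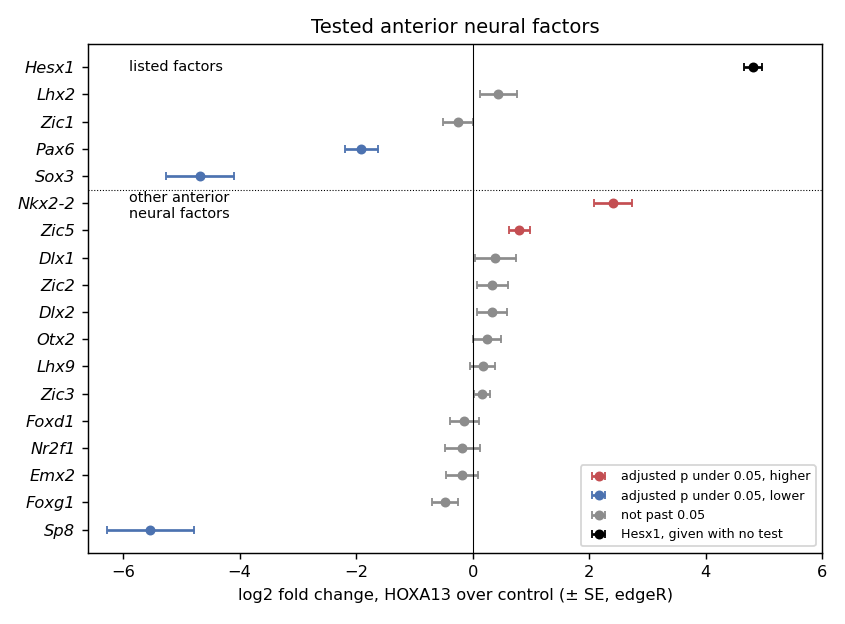
Log2 fold changes (HOXA13 over control, edgeR, bars ± SE, *n* = 3 libraries per group) of *Hesx1* and the tested anterior neural factors; colours give the direction of genes past an adjusted p of 0.05, and *Hesx1* is shown with no test. *Hesx1* stands at 4.81, *Sox3* and *Sp8* at -4.68 and -5.53, and most others lie near 0.

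Pan-neural and progenitor genes moved both ways, with more lower than higher. Of 24 listed, 16 were tested, 4 were higher and 9 were lower, against 14.4% and 13.3% of all tested genes, and the median was -0.34. With at least 10 counts in every library, 2 of 13 tested genes were higher and 9 lower, with *Olig3* and *Neurog1* no longer tested. *Olig3*, a basic helix-loop-helix factor of the dorsal neural tube, rose from 0.202 ± 0.0658 to 3.10 ± 0.261 CPM (log2 fold change 3.85, SE 0.30, edgeR adjusted p = 0.000108). The proneural *Neurog1* rose from 0.0763 ± 0.092 to 1.11 ± 0.489 CPM (3.60, SE 0.67, adjusted p = 0.00584), with a log2 fold change of 4.98 without control replicate 1, which held 4 of the 5 control counts. *Sox21* rose from 1.69, 6.93 and 1.92 CPM to 18.4, 15.6 and 17.6 CPM (2.36, SE 0.46, adjusted p = 0.00698), or 3.24 without control replicate 2. *Sox2*, the SoxB1 relative of *Sox1* and *Sox3* and a core pluripotency factor, had 220, 376 and 279 CPM in control and 414, 440 and 418 CPM in HOXA13 libraries (0.54, SE 0.17, adjusted p = 0.0431). The *Sox2* call was lost without control replicate 3 (adjusted p = 0.13) or without HOXA13 replicate 1, 2 or 3 (0.124, 0.134 and 0.11), and with library size alone (0.0563).

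Lower members of that list included *Pou3f1*, a POU factor of epiblast and early neural cells, which fell from 19.4 ± 6.94 to 1.89 ± 0.43 CPM (log2 fold change -3.39, SE 0.32, edgeR adjusted p = 0.00026). The oligodendrocyte and motor neuron factor *Olig2*, at 5.75, 18.1 and 9.3 CPM in control and 1.93, 1.87 and 2.27 CPM in HOXA13 libraries, had a log2 fold change of -2.44 (SE 0.42, adjusted p = 0.00408) and the RNA-binding progenitor marker *Msi1* -1.86 (SE 0.22, adjusted p = 0.000828). *Nes*, the intermediate filament nestin, fell from 213 ± 101 to 59.2 ± 3.84 CPM (-1.85, SE 0.30, adjusted p = 0.00334). The neurogenic *Neurod1* fell by 1.59 (SE 0.31, adjusted p = 0.0072). Thus *Pax6* and *Sox3* were lower alongside several general neural genes, while the genes that rose with *Hesx1* in this list were *Olig3*, *Neurog1*, *Sox21* and *Sox2*.

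Among factors of more posterior neural tissue *Pax8* was lower. Of 18 midbrain, hindbrain and spinal cord factors, 10 were tested, 0 were higher (2 at an unadjusted p under 0.05, 0 with DESeq2 or limma-voom, 2 without control replicate 1 and 1 without control replicate 2) and 1 was lower, with a median of -0.03. The shares over all tested genes were 14.4% higher and 13.3% lower. The lower gene was *Pax8*, which had 29, 8 and 19 counts in control and 2, 2 and 0 in HOXA13 libraries (log2 fold change -3.51, SE 0.63, edgeR adjusted p = 0.00519).

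Genes tied to *Hesx1* itself were also examined. Hesx1 represses its targets with Groucho-related TLE proteins and other corepressors. The list held 8 genes of the Groucho family or of other corepressors, and whether each of them acts with Hesx1 was not tested. Of the 8, all tested for expression, 2 were higher and 0 were lower (0 also at an unadjusted p under 0.05, with DESeq2 and with limma-voom). The median log2 fold change was 0.14. The count of higher genes was 3 with DESeq2 and limma-voom, 4 with each chromosome centred and 1 to 3 with a library left out, and the share over all tested genes was 14.4%. *Tle6* rose from 4.77 ± 0.116 to 12.2 ± 1.23 CPM (log2 fold change 1.36, SE 0.13, edgeR adjusted p = 0.00033). *Tle2* went from 3.78 ± 0.706 to 6.33 ± 1.12 CPM (0.75, SE 0.21, adjusted p = 0.0304), a call lost without control replicate 3 (0.0725) or any HOXA13 replicate (0.0622 to 0.136). The other 6, among them *Tle1*, *Tle3* and *Tle4*, passed in neither direction.

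In the anterior visceral endoderm list, a tissue where *Hesx1* is also transcribed in the embryo, 5 of 9 genes were tested. Of the 5, 0 were higher (0 also at an unadjusted p under 0.05, with DESeq2 and with limma-voom) and 2 were lower, against 14.4% and 13.3% of all tested genes. The median log2 fold change was -1.31. The lower genes were the Nodal antagonist *Lefty1*, which fell by 1.69 on the log2 scale (SE 0.18, edgeR adjusted p = 0.000456), and the homeobox gene *Hhex*, which fell by 1.31 (SE 0.25, adjusted p = 0.00636). Without control replicate 2, 8 of the 9 passed the count filter and all 8 were lower, in a fit where 2579 of all 14118 tested genes were lower. That library had 2 counts of *Lhx1* against 269 and 36 in control replicates 1 and 3, and 4 counts of *Gsc* against 85 and 37.

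**Figure D4:**
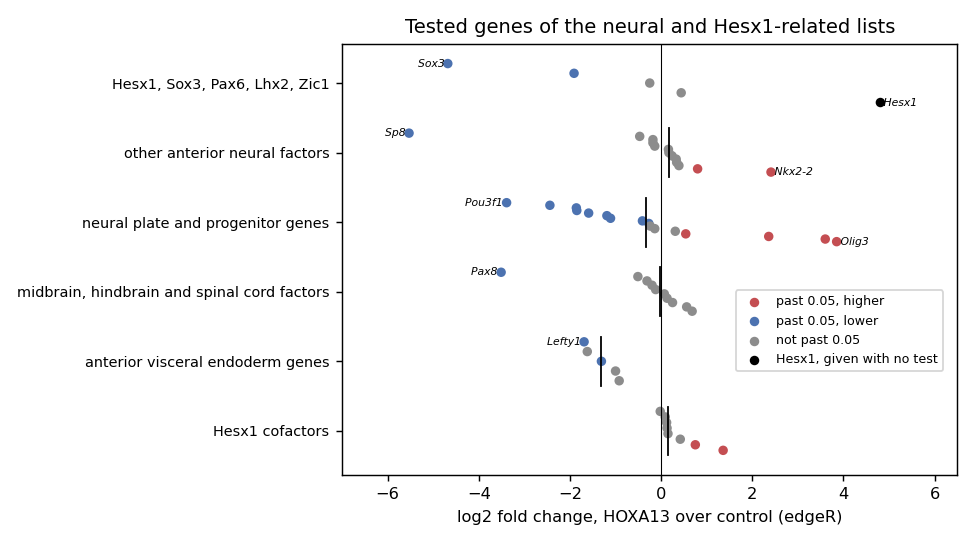
Log2 fold changes (HOXA13 over control, edgeR) of the tested genes of each list; points are genes, black bars list medians, and the gene with the lowest and the highest value of each list is named where it passes 1.5 in size. The neural and cofactor lists have medians of -0.34 to 0.17 and the anterior visceral endoderm list has -1.31 over 5 tested genes. *Hesx1* lies at 4.81 and *Sox3* at -4.68.

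The high *Hesx1* level was not shared by its neighbours on chromosome 14. Of 8 other genes whose lower coordinate lies within 500 kb of its start, 7 were tested. *Appl1*, an endosomal adaptor gene on the opposite strand whose 5′ end lies 29.1 kb before that of *Hesx1*, had a log2 fold change of 0.39 (SE 0.10, edgeR adjusted p = 0.0231). That call was lost with each chromosome centred (adjusted p = 0.277), without control replicate 3 (0.0812) and without any HOXA13 replicate (0.06 to 0.103). *Il17rd*, an FGF signalling antagonist starting 38.6 kb downstream, was at 123, 121 and 101 CPM in control and 76.8, 75.6 and 78.1 CPM in HOXA13 libraries (-0.58, SE 0.09, adjusted p = 0.00217). *Arhgef3*, a RhoA exchange factor gene 238 kb downstream, fell by 1.25 (SE 0.15, adjusted p = 0.000702), and *Ccdc66*, on the opposite strand with its 5′ end at 508 kb, rose by 0.63 (SE 0.11, adjusted p = 0.00503). The upstream *Pde12*, *Arf4* and *Dennd6a* had log2 fold changes of 0.33, 0.11 and 0.03 and passed in neither direction. *Asb14*, 106 kb before *Hesx1*, had too few counts to be tested, with 8, 8 and 9 counts in control and 3, 1 and 1 in HOXA13 libraries. Chromosome 14 as a whole was shifted, with a median of 0.26 over 468 tested genes, 25.4% of them higher and 6.84% lower. Relative to that shift the log2 fold change of *Hesx1* was 4.52.

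**Figure D5:**
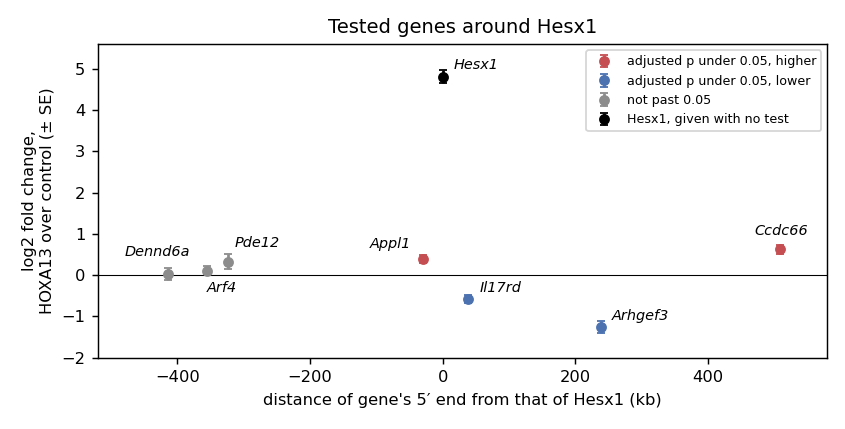
Log2 fold changes (HOXA13 over control, edgeR, bars ± SE, *n* = 3 libraries per group) of tested genes around *Hesx1*, by the distance in kb between the 5′ ends. *Hesx1* at 4.81 is far from its neighbours, which lie between -1.25 and 0.63.

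The genes whose levels across the 6 libraries were most like those of *Hesx1* were found by the root mean square distance of centred log2(CPM + 0.5) values, among 12041 other genes. The nearest was *Rnf39*, at a distance of 0.22 on the log2 scale, with 1.11, 1.22 and 0.606 CPM in control and 21.3, 20.9 and 20.0 CPM in HOXA13 libraries. *Klk15*, a kallikrein-family protease gene, followed at 0.225, with at most 1 count per control library and 6.91, 9.25 and 7.56 CPM in HOXA13 libraries. *Prkch*, which encodes protein kinase C eta, came next at 0.249 with 0.922 ± 0.211 CPM in control and 24.4 ± 1.99 CPM in HOXA13 cells. *Fbp2*, a fructose bisphosphatase gene, and *Acsm3* completed the 5 nearest at 0.292 and 0.338. The edgeR log2 fold changes of *Klk15*, *Fbp2* and *Acsm3* were 8.34, 5.44 and 7.95, against 4.81 for *Hesx1*. Adding 0.5 before the logarithm narrows the distance where control levels are near 0. The 5 nearest genes lie on chromosomes 17, 7, 12, 13 and 7, and none is in the neural lists above.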

How the data were processed

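KH2 mESC RNA libraries (3 control, 3 HOXA13, directional, 75-base reads) were analysed from counts per gene that the authors deposited, 1 table per library. Per the submitters' processing notes the tools were bcl2fastq 2.17, TopHat2 2.0.14 and HTSeq 0.6.1p1 on mm9. HTSeq leaves out multiply mapped reads by default, which can lower genes with close copies, and the strand setting is not given in the sources used here. The totals, 13494135 to 21766589 counts, make 3 counts equal to 0.134 to 0.227 CPM.

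Groups came from the labels' genotype. Genes kept by edgeR's filterByExpr (13846 of 24393) were tested with edgeR 4.0.16 (R 4.3.3), TMM scaling and the quasi-likelihood test. The p-values were adjusted over all tested genes by the Benjamini-Hochberg method and called under 0.05. CPM values use the TMM-scaled library sizes. Genes below the filter were compared by exact two-sided permutation over the samples, on log2(CPM + 0.5). Intervals of count ratios are exact binomial ones at 95% and cover counting error only. Positions and exon lengths came from GENCODE vM1 on mm9, on which 20824 features were placed by symbol and 1377 by an older symbol, and 2192 were not placed. Promoters came from the RefSeq table on GRCm38.p6. No unused sample columns were present. Alternatives were RLE factors, library size alone, other count filters, a replicate block, robust estimation, centred chromosomes, DESeq2 1.42.0, limma-voom (limma 3.58.1) and leaving out each library.

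The 9 genes and all gene lists were chosen with earlier results of these data known. The text names the 9 genes, at most the 8 called genes of each list with the largest changes, genes overlapping any of the 9, the placed genes whose lower coordinate lies within 500 kb of the *Hesx1* start, and the 5 genes most like it. *Otx2*, *Zic2*, *Lhx1*, *Gsc*, *Pou5f1*, *Tle1*, *Tle3* and *Tle4* were named after their values were seen. The result of 1 further list is not reported here. The study's methods call the replicates biological, but the sources used here do not say that they came from separate cultures or clones, so p-values measure only the spread between these samples, which may be technical.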

Additional observations from a re-analysis of the deposited data

How the results depend on the processing

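Of the 164 values computed for the 9 factors, the wider anterior list and the whole table under the alternatives, 150 kept their direction and side of the threshold or moved little. *Hesx1* ranged from 4.65 to 4.90 with a library left out and was 4.52 with each chromosome centred. Leaving out a library moved the count of higher genes between 1134 and 2428 and of lower genes between 904 and 2579, with the smallest counts without HOXA13 replicate 1 and the largest without control replicate 2. With library size alone 1576 genes were higher and 2500 lower, so that 38.7% of calls were higher against 52.0%, and the median of all genes moved to -0.07. With at least 10 counts in every library, 1 of the 8 factors other than *Hesx1* was lower, since *Sox3* was not tested, and of the wider anterior list 1 was higher and 0 were lower, since *Nkx2-2* and *Sp8* were not tested. In that list 1 was higher with each chromosome centred, and between 1 and 3 were higher with a library left out. Signs turned with each chromosome centred for *Arf4* (-0.16), *Dennd6a* (-0.23, edgeR adjusted p = 0.0307), *Otx2* (-0.10) and *Zic2* (-0.01), and with library size alone for *Dennd6a* (-0.04). *Arf4* and *Dennd6a* lie on chromosome 14, whose median log2 fold change of 0.26 is taken out when each chromosome is centred. With a library left out *Arf4* ranged from 0.00 to 0.24, *Dennd6a* from -0.08 to 0.21, *Otx2* from -0.03 to 0.48 and *Pou5f1* from -0.11 to 0.04. The causes were not tested. Without control replicate 2, *Pde12* (0.59, 0.000342) and *Arf4* (0.24, 0.0342) passed the threshold.

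With the replicate block 1696 genes were higher and 1476 lower, and 0 of the 8 factors other than *Hesx1* were higher and 2 were lower. The numbers give no pairing, since deviations of same-numbered libraries correlated at -0.0154, -0.0454 and 0.0182. Depth limits what can be said of *Six3*, *Lhx5*, *Rax* and *Sox1*, for which 3 counts equal 0.134 to 0.227 CPM. The controls differed more among themselves than the HOXA13 libraries, with chi-square per degree of freedom of 34.2 (replicates 1 and 2), 21.3 (1 and 3) and 12.7 (2 and 3) against 1.89 to 6.03.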
